A study of Sus scrofa with 63 samples.

Results

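The genes described here are 10 genes of intestinal goblet cells and of the mucus layer, MUC1, MUC2, MUC4, MUC13, TFF3, AGR2, FCGBP, SPDEF, CLCA1 and ZG16, measured in the jejunum of pig fetuses near term. The genes were picked with earlier results of these data known, and every probe of the microarray whose gene name equalled one of them, in any letter case, was kept. Of the 10 genes, 7 had such a probe, with 20 probes in all among the 60305 of the array, and TFF3, AGR2 and ZG16 were not analysed here. The array measured 63 male fetuses, none of them treated, taken by caesarean at day 90 or day 110 of gestation. Purebred Large White (LW) fetuses numbered 9 at each age, purebred Meishan (MS) fetuses 6 at day 90 and 7 at day 110, LWMS fetuses (LW sire, MS sow) 9 at each age, and MSLW fetuses (MS sire, LW sow) 8 at day 90 and 6 at day 110. Sows of both breeds had been inseminated with mixed semen, so that purebred and crossbred fetuses shared litters. The labels do not give the litter, so litter could not enter a test, and p-values can be too small where litters differ.

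Goblet cells are the mucus-secreting cells of the intestinal epithelium. They arise from the secretory lineage of the crypt, store gel-forming mucin in granules, and release it with proteins that fold, cross-link and process it. MUC2 is the main gel-forming mucin of the intestine. FCGBP, the Fc gamma binding protein, and CLCA1, a secreted metalloprotease once described as a calcium-activated chloride channel regulator, are abundant proteins of the mucus. SPDEF is the ETS family transcription factor of goblet cell maturation. MUC1, MUC4 and MUC13 are transmembrane mucins, which stay anchored in the apical membrane of the epithelium and, of these, MUC13 is also made by enterocytes.

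A probe on this array is a strand of 60 bases, and the probe sequences decide which values can be read as separate measurements. They are given 5′ to 3′ as in the scanner files. Those of CLCA1, the gene with the most probes, are shown because one of them alone passed a test by breed. Capitals mark the longest stretch of bases that A_72_P146816 and A_72_P644034 share.
CLCA1 A_72_P146816: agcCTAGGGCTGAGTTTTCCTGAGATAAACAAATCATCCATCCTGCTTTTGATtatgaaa
CLCA1 A_72_P644034: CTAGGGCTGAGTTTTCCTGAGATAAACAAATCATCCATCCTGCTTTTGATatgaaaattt
CLCA1 A_72_P317658: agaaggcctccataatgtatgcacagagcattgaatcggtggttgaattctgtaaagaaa
CLCA1 A_72_P443562: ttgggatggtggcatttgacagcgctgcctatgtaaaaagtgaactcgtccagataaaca
CLCA1 A_72_P583266: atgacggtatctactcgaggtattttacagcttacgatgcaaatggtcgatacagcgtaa
CLCA1 A_72_P617962: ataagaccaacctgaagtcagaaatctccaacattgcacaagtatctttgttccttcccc
The shared stretch was 50 bases long, so this pair reads nearly the same piece of the transcript. No other pair of CLCA1 probes shared more than 9 bases in a row. Of the 6 probes, 5 list the pig RefSeq mRNA of CLCA1 and A_72_P317658 does not.

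The MUC13 probes are shown because one of them did not follow the others. Capitals mark the stretch shared with O4373, and in O4373 the stretch shared with A_72_P442057.
MUC13 A_72_P442057: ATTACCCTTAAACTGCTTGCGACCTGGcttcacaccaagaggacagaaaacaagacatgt
MUC13 A_72_P444993: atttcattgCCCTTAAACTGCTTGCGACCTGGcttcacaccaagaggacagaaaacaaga
MUC13 O4373: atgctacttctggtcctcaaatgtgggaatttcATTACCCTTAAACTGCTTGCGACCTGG
MUC13 A_72_P165116: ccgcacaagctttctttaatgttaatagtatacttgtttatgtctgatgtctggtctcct
MUC13 A_72_P759409: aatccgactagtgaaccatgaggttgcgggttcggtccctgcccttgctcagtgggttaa
A_72_P442057, A_72_P444993 and O4373 overlap, and A_72_P444993 differs from O4373 by the single substitution G9A, counted from the 5′ end of A_72_P444993. A_72_P759409 lists 4 RefSeq mRNAs in the scanner files and shares 15 or more bases in a row with 4 probes of other names. Over the 63 arrays its level correlated with the other 4 MUC13 probes at r between -0.34 and -0.09, whereas those 4 correlated with each other at 0.88 to 0.99. It was the brightest MUC13 probe and so would stand for the gene by the rule of the highest mean. MUC13 is instead described through A_72_P442057, the brightest probe that lists 1 mRNA, a choice made after the values were seen.

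The genes with a single usable probe are shown for identity, together with both sequences of MUC1.
SPDEF A_72_P476914: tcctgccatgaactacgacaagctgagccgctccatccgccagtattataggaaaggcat
FCGBP O12657: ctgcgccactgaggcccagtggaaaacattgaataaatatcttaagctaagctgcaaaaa
MUC2 O6928: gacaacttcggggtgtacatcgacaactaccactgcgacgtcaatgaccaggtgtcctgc
MUC1 A_72_P428824: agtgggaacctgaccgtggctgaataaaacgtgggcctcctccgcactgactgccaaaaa
MUC1 A_72_P444923: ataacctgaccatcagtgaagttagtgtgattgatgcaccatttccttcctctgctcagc
The 60 bases of MUC1 A_72_P444923 are also those of the MUC1 probe O5377, so that these probes repeat 1 measurement. The MUC1, MUC2 and FCGBP probes carry accessions that the pig RefSeq table does not hold, and their gene names rest on the array's own annotation.

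Levels are log2 signals, scaled so that the 75th percentile of every array is at 0, and a level of 1 probe cannot be set against that of another. Between 51.2% and 87.6% of all probes were well above background on an array, with medians of 67.6% at day 90 and 66.3% at day 110, and no spot was saturated. Of the 20 member probes, 16 of 6 genes were above background often enough to be tested. All 5 tested epithelial markers and 6 of the 8 tested enterocyte markers were well above background on every array. MUC2, which defines goblet cells, was dim: its probe was well above background on 43 of 63 arrays. Fetuses 484 and 632 stood apart. Fetus 484 (LW, day 90) was the lowest of its age in CLCA1 and FCGBP, and fetus 632 (MS, day 110) was the lowest of its age in FCGBP and MUC13, the highest in MUC1, and had the lowest mean level of the enterocyte markers of all fetuses, -0.29 against 1.23 or more in the other day 110 fetuses. Calls of member probes that changed without both are named beside the result. In whole tissue, fewer cells of a type and less RNA per cell cannot be told apart.

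**Figure D1:**
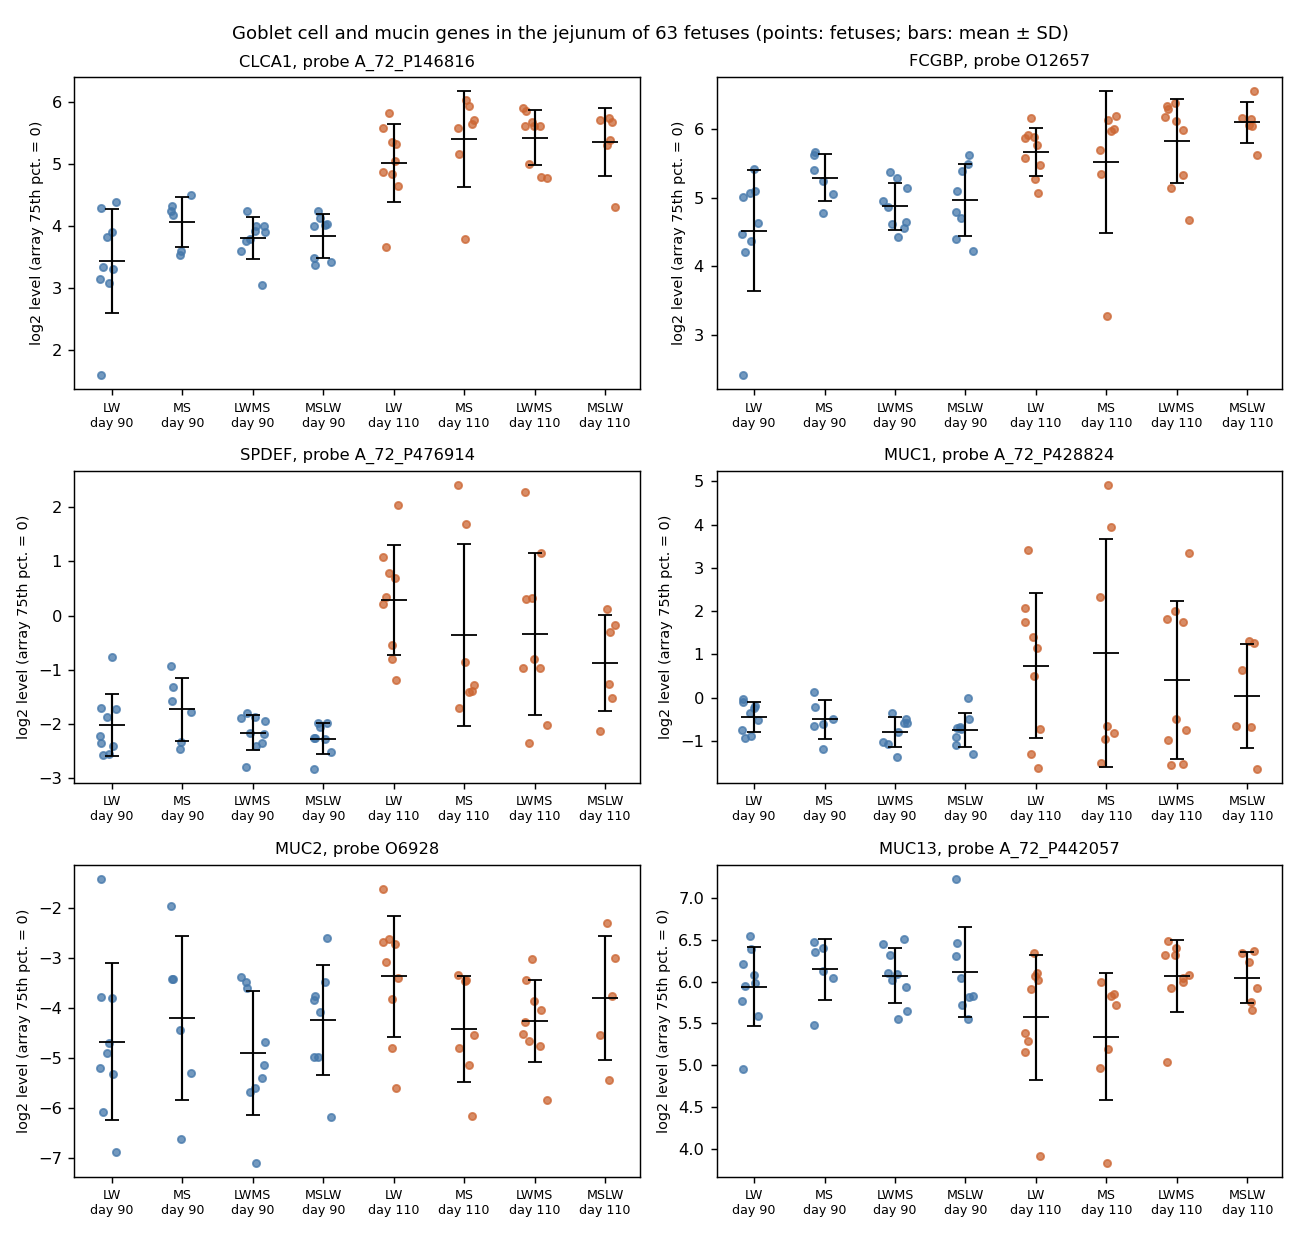
Log2 level (y axis, 75th percentile of the array at 0) of 1 probe for each of the 6 tested genes in the 8 genotype and day groups (x axis). Points are fetuses, blue at day 90 and orange at day 110, and bars are the mean ± SD; CLCA1 and FCGBP shift upwards at day 110, SPDEF and MUC1 spread out, and MUC13 and MUC2 overlap between the ages.

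The goblet cell genes that moved between the ages all moved upwards. Of the 16 tested probes, 10 were higher at day 110 over the mean of the 4 genotypes (adjusted p of at most 0.01 and a log2 difference of at least 0.5) and none was lower, whereas 13.8% of all 40515 tested probes passed the same test, 6.07% of all probes upwards and 7.71% downwards. The 10 were the 6 CLCA1 probes, the SPDEF and FCGBP probes, and both tested MUC1 probes. The median log2 difference was 1.099 over the 16 probes and -0.02 over all probes. Probes of 1 gene are not separate evidence, and counted by gene, 4 of the 6 tested genes rose. Within single genotypes 7 of the 16 probes rose in LW (4.76% of all probes passed), 3 in MS (3.12%), 6 in LWMS (9.86%) and 5 in MSLW (5.43%), and none fell. Without fetuses 484 and 632 the counts were 5 in MS, 8 in LWMS and 6 in MSLW.

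Markers of other cell types moved between the ages as well. Of 8 enterocyte markers 5 rose, among them FABP1 by 2.55 and ALPI, the intestinal alkaline phosphatase, by 2.47, and ANPEP fell by 0.59, with a median difference of 1.39 over the 8. Within genotypes 1 of the 8 rose in LW (4.76% of all probes passed), 1 in MS (3.12%), 4 in LWMS (9.86%) and 3 in MSLW (5.43%). The medians over the 8 were 0.60, 0.44, 1.65 and 1.95 in that order. The mean level of the enterocyte markers ran from 2.37 to 3.96 at day 90 and from -0.29 to 5.44 at day 110. Of 6 stromal markers 2 fell (COL1A1 and COL1A2) and none rose, with a median of -0.43, and their mean level ran from 3.81 to 4.99 at day 90 and from 3.25 to 5.36 at day 110. Of 3 enteric neuron markers 2 fell, with a median of -0.63, and none of the 5 epithelial markers passed (median 0.26). Of 6 smooth muscle markers 1 fell (median -0.18), and the 1 tested blood marker fell by 1.68. No marker of enteroendocrine cells, immune cells or endothelium passed. The part of these shifts in the rise of the goblet cell genes was not tested.

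CLCA1 gave the clearest separation of the ages. The level of A_72_P146816 at day 90 was lowest at 1.60, with a median of 3.91 and a highest value of 4.50 over 32 fetuses. At day 110 it was lowest at 3.67, with a median of 5.57 and a highest value of 6.02 over 31 fetuses. Of the day 110 fetuses, 28 lay above every day 90 fetus, and the other 3 were fetuses 572, 578 and 632. The log2 difference was 1.51 ± 0.14 (SE), a 2.85-fold rise, with an adjusted p of 4.3e-13. Within the 8 slides it ranged from 0.96 to 2.02 and was positive on all 8.

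The rise of CLCA1 was called in every genotype with 3 of its 6 probes, A_72_P146816, A_72_P644034 and A_72_P317658. In MS the other 3 did not pass, and A_72_P583266 passed in no single genotype (adjusted p of 0.013 to 0.18). Without fetuses 484 and 632, A_72_P583266 passed in MS and LWMS, and A_72_P617962 passed in MS. For A_72_P146816 the log2 difference was 1.58 in LW, 1.34 in MS, 1.62 in LWMS and 1.51 in MSLW, each with an SE between 0.26 and 0.31. The call in MS was lost in the fit of the purebred fetuses alone. Among LW fetuses the mean went from 3.43 ± 0.83 (SD, n = 9) to 5.01 ± 0.63 (SD, n = 9). Among MS fetuses it went from 4.06 ± 0.40 (SD, n = 6) to 5.40 ± 0.77 (SD, n = 7). The other 5 probes rose by 1.21 to 1.97 over the mean of the genotypes. No difference in the rise between MS and LW passed the test, and for A_72_P146816 it was -0.24, with a 95% interval from -1.06 to 0.58.

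SPDEF rose unevenly between fetuses. Its level was between -2.82 and -0.77 at day 90 (median -2.18) and between -2.35 and 2.41 at day 110 (median -0.55). Of the 31 day 110 fetuses, 16 lay above the highest day 90 fetus and the other 15 overlapped the day 90 range. The log2 difference was 1.72 ± 0.24 (SE), a 3.30-fold rise, with an adjusted p of 5.3e-08. By genotype it was called in LW (2.32, adjusted p = 0.00022) and LWMS (1.82, adjusted p = 0.0023), and was 1.37 in MS (adjusted p = 0.11) and 1.39 in MSLW (adjusted p = 0.066). The difference between MS and LW in this rise was -0.95, with a 95% interval from -2.34 to 0.45, and did not pass the test. The spread grew with age in every genotype, the SD going from 0.58 to 1.01 in LW, from 0.59 to 1.68 in MS, from 0.32 to 1.49 in LWMS and from 0.29 to 0.89 in MSLW.

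FCGBP rose by 0.86 ± 0.15 (SE), a 1.82-fold change with an adjusted p of 6.0e-06. Its level ran from 2.42 to 5.66 at day 90 (median 4.98) and from 3.28 to 6.55 at day 110 (median 5.97), and 21 of the 31 day 110 fetuses lay above every day 90 fetus. In LW the mean went from 4.52 ± 0.88 (SD, n = 9) to 5.67 ± 0.35 (SD, n = 9), the only genotype in which the rise was called (1.15, adjusted p = 0.0039). That call was lost under median centring, without LW fetuses 484 and 469, and in the fit of the purebred fetuses alone. In MS the mean went from 5.30 ± 0.34 (SD, n = 6) to 5.52 ± 1.03 (SD, n = 7), a difference of 0.23 (adjusted p = 0.76), in a group whose lowest fetus, 632, was at 3.28 and whose other 6 fetuses were at 5.35 or more. In LWMS and MSLW the differences were 0.95 and 1.13, with adjusted p of 0.011 and 0.014. Both were called with array weights, without LW fetuses 484 and 469, and without fetuses 484 and 632. The rise in LWMS was also called when only probes well above background on all 63 arrays were tested. MS and LW did not differ in the rise after adjustment (-0.92, unadjusted p = 0.040, adjusted p = 0.70).

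MUC1 was nearly uniform at day 90 and split the fetuses at day 110. The level of A_72_P428824 ran from -1.37 to 0.14 at day 90 (median -0.60, 31 fetuses with a value). At day 110 it ran from -1.64 to 4.91 (median 0.49), with 16 of 31 fetuses above and 5 below the whole day 90 range. The log2 difference was 1.17 ± 0.34 (SE), with an adjusted p of 0.0050, and was called in no single genotype, where it lay between 0.78 and 1.53. The SD grew from 0.34 to 1.68 in LW, from 0.45 to 2.64 in MS, from 0.35 to 1.83 in LWMS and from 0.39 to 1.21 in MSLW. The other tested MUC1 probe, A_72_P444923, differed by 1.03 (adjusted p = 0.0073), was well above background on 39 of 63 arrays, and was no longer called in 5 of the alternative settings: without a filter on dim probes, with a stricter one that left it out, with slide as a block, with array weights, and without fetuses 484 and 632.

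**Figure D2:**
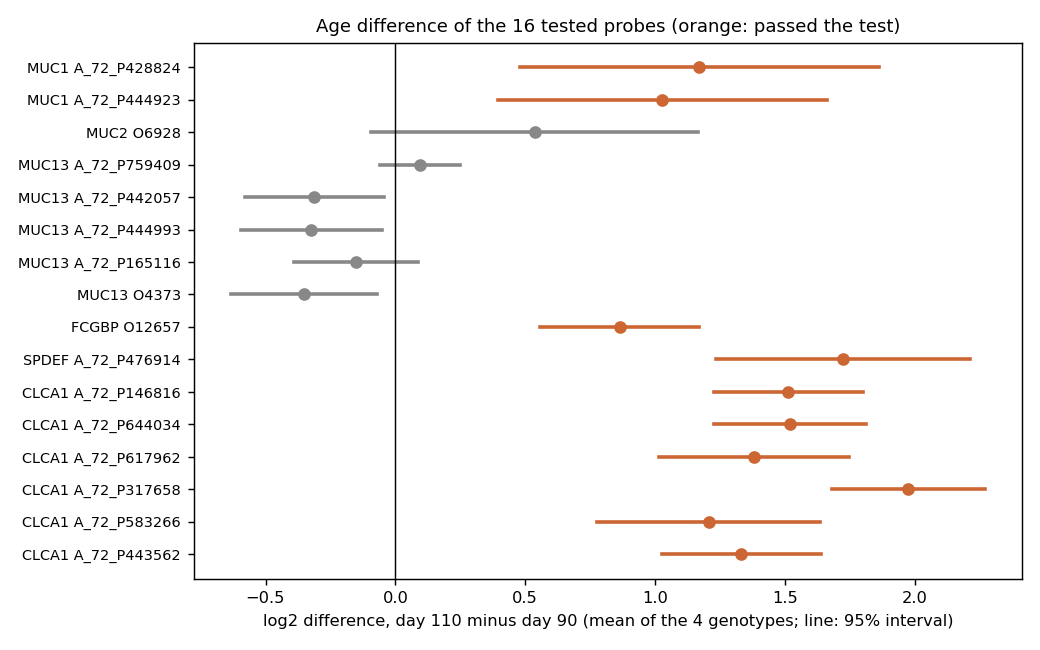
Log2 difference between day 110 and day 90, mean of the 4 genotypes (x axis), for each of the 16 tested probes (y axis); points are the estimates, lines the 95% intervals, and orange marks probes that passed the test. The 6 CLCA1 probes lie between 1.21 and 1.97 and the 5 MUC13 probes between -0.35 and 0.09.

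No MUC13 probe passed the test in either direction. The level of A_72_P442057 ran from 4.95 to 7.23 at day 90 (median 6.06) and from 3.83 to 6.48 at day 110 (median 5.93), and the ages overlapped almost wholly, with 2 day 110 fetuses below all others, 632 and 575. The log2 difference was -0.31, with a 95% interval from -0.58 to -0.05 and an adjusted p of 0.056. A_72_P444993, A_72_P165116 and O4373 differed by -0.35 to -0.15, and A_72_P759409, the probe that did not follow the others, by 0.09 (adjusted p = 0.35). In MS the difference was -0.81 ± 0.29 (SE, adjusted p = 0.076), and in LWMS -0.00 ± 0.25 (SE).

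MUC2 differed by 0.54 between the ages, with a 95% interval from -0.09 to 1.17 and an adjusted p of 0.18. Its level ran from -7.09 to -1.43 at day 90, where 20 of 32 fetuses were well above background, and from -6.16 to -1.63 at day 110, where 23 of 31 were. The ages overlapped, and the SD within a group was 0.82 to 1.63, so that the interval holds both no change and a log2 rise of 1. The MUC4 probes were well above background on 6, 2 and 2 of the 63 arrays and were not tested. MUC4 was therefore not measurable with these probes in most fetuses.

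Apart from 1 CLCA1 probe, no tested member passed a comparison by breed. At day 90, 1 of 16 probes differed between MS and LW (3.58% of all probes). At an unadjusted p under 0.05, 5 of 16 did at day 90, against 18% of all probes. These 5 were probes of CLCA1 and FCGBP, all higher in MS. At day 110 none passed (4.99% of all probes), and 1 of 16 had an unadjusted p under 0.05 (23.3% of all probes). No member probe passed for the interaction of breed and age (0.0173% of all probes; at an unadjusted p under 0.05, FCGBP as 1 of 16 and 6.61% of all probes) or for that of sow breed and age (0.388%; at an unadjusted p under 0.05, none of 16 and 10.9% of all probes). By sow breed 1 of 16 passed (16% of all probes), and by sire breed 1 of 16 (6.95% of all probes). At an unadjusted p under 0.05 these were 2 of 16 by sow breed (29.9% of all probes) and 1 of 16 by sire breed (18.9%). The 3 breed calls that passed after adjustment were of the same probe, CLCA1 A_72_P317658.

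Fetuses with an MS sire had the higher level of A_72_P317658. At day 90 it ran from 1.18 to 3.15 (median 2.12) in 14 fetuses of MS sires and from -0.84 to 2.33 (median 1.27) in 18 of LW sires. At day 110 it ran from 3.11 to 4.66 (median 4.13) in 13 fetuses of MS sires and from 1.99 to 4.15 (median 3.33) in 18 of LW sires. The groups overlapped at both ages. The log2 difference by sire was 0.85 ± 0.15 (SE, adjusted p = 3.5e-05), and that by sow breed 0.42 ± 0.15 (SE, adjusted p = 0.044). Within slides, fetuses of MS sires were higher on all 8 at day 90, by 0.47 to 1.91. At day 110 they were higher on 5 of the 6 slides with both kinds of sire.

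**Figure D3:**
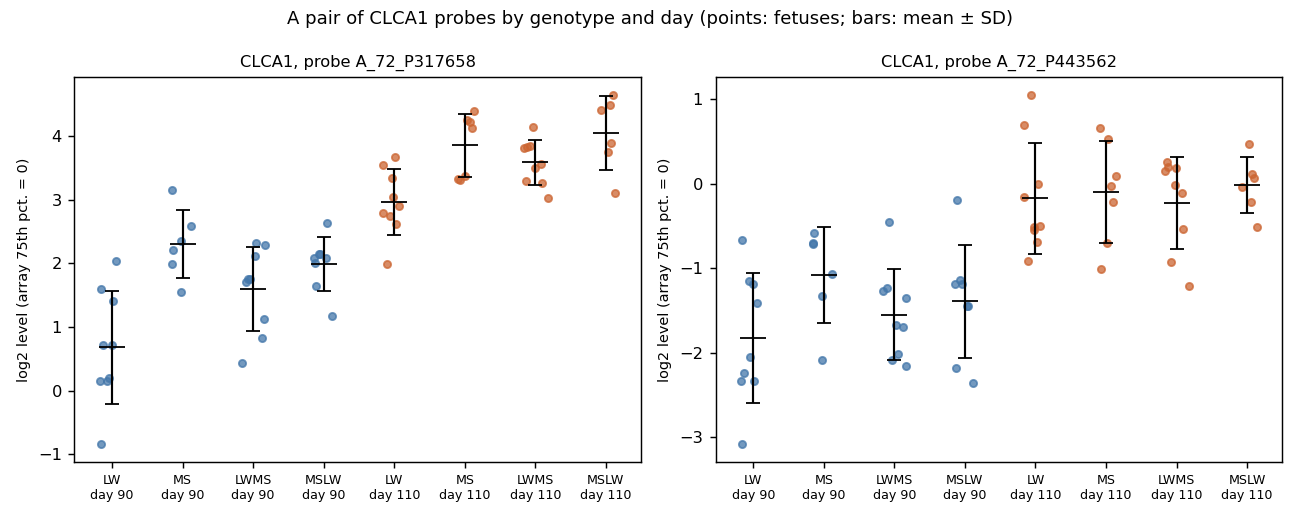
Log2 level (y axis, 75th percentile of the array at 0) of CLCA1 probes A_72_P317658 and A_72_P443562 in the 8 genotype and day groups (x axis); points are fetuses and bars the mean ± SD. For A_72_P317658 the LW group has the lowest mean at both ages, 0.68 and 2.96, and both probes are higher at day 110.

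Between the purebreds, the mean of A_72_P317658 at day 90 was 0.68 ± 0.89 (SD, n = 9) for LW fetuses and 2.31 ± 0.54 (SD, n = 6) for MS fetuses, a difference of 1.63 ± 0.30 (SE, adjusted p = 0.00013). LWMS and MSLW lay between them at 1.59 ± 0.66 (SD, n = 9) and 1.99 ± 0.42 (SD, n = 8). At day 110 the difference between the purebreds was 0.90 ± 0.29 (SE, adjusted p = 0.035), short of the threshold. The other 5 CLCA1 probes differed between MS and LW by 0.37 to 0.75 at day 90 and by 0.02 to 0.30 between sires, and none passed. Whether the probes differ from each other in this was not tested. The call by sow breed was lost under quantile normalization, without a filter on dim probes, on the matrix deposited by the authors, and when single fetuses were left out.

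Further genes of the goblet cell and its mucus, from lists drawn up by function, put these values in context. Among 13 other mucin genes only MUC20 could be tested, a transmembrane mucin, and it rose by 1.09 ± 0.13 (SE, adjusted p = 3.8e-10). Of 11 tested goblet cell products, 4 rose and none fell, where 6.07% of all probes rose: DMBT1, a scavenger receptor glycoprotein of mucosal surfaces, by 3.29 ± 0.20 (SE); TFF2, a trefoil peptide chiefly of gastric mucous cells, by 4.85 ± 0.87 (SE); SPINK4 by 0.87 ± 0.16 (SE); and TFF1 by 1.46 ± 0.46 (SE). By sow breed 1 of the 11 passed (16% of all probes), DMBT1, which was 0.82 higher in fetuses of MS sows (adjusted p = 0.0026). By sire breed 2 of the 11 passed (6.95% of all probes), RETNLB and ITLN2, both lower in fetuses of MS sires, with log2 differences of -0.68 and -0.65. Between MS and LW at day 110 the same genes were lower in MS (-1.46 and -1.45) and BCAS1 was higher (0.67), against 4.99% of all probes called. RETNLB, ITLN2 and BCAS1 were named after their values were seen. The list's age median difference was 0.16, against -0.02 for all probes.

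Of 8 tested regulators of the secretory lineage, NOTCH1 fell by 0.82 on the log2 scale (adjusted p = 0.00011) and the other 7 did not pass, where 13.8% of all probes passed. NOTCH1 encodes a receptor whose activity in crypt progenitors favours the absorptive over the secretory fate. Of 15 tested genes of mucin folding and O-glycosylation, FUT2, the fucosyltransferase that makes H antigen on secreted glycans, rose by 2.03 ± 0.36 (SE, adjusted p = 6.3e-06), and none fell. For age, neither list's count therefore stood far from the share over all probes. Genes of protein folding and of the first step of O-glycosylation had a small adjusted p but a difference under 0.5, among them XBP1 (0.47), HSPA5 (0.47), GALNT1 (0.42) and GALNT7 (0.43), which were picked after their values were seen. The median age difference of the 15 was 0.31. By sire breed, 1 of the 15 was higher and 3 were lower in fetuses of MS sires, where 6.95% of all probes passed. By sow breed none of the 15 passed (16% of all probes). No regulator of the secretory lineage passed by sire or sow breed.

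At day 110 TFF2 divided the fetuses into those with high and those with low levels, and SPDEF followed that division. At day 110, 14 fetuses had TFF2 levels of 6.74 to 9.46 and the other 17 had -1.87 to 2.98, while no day 90 fetus exceeded 2.42. The 14 were 6 of 9 LW, 2 of 7 MS, 4 of 9 LWMS and 2 of 6 MSLW fetuses, and lay on 7 of the 8 slides. In these 14 SPDEF ran from -0.17 to 2.41, and in the other 17 from -2.35 to -0.30, without overlap. MUC1 ran from 0.49 to 3.94 in the 14, and in the other 17 from -1.64 to 0.63 except in fetus 632, at 4.91, so that the lowest of the 14 lay below 2 of the 17. CLCA1 did not follow this division: it ran from 3.67 to 6.02 in the 14 and from 3.78 to 5.93 in the 17. FCGBP ran from 5.33 to 6.39 in the 14 and from 3.28 to 6.55 in the 17, with medians of 5.89 and 5.99. The dim MUC2 probe ran from -4.28 to -1.63 in the 14, with a median of -3.06. In the 17, of which 16 had a value, MUC2 ran from -6.16 to -3.46, with a median of -4.72. Both genes overlapped between the sides, though MUC2 was mostly higher in the 14.

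**Figure D4:**
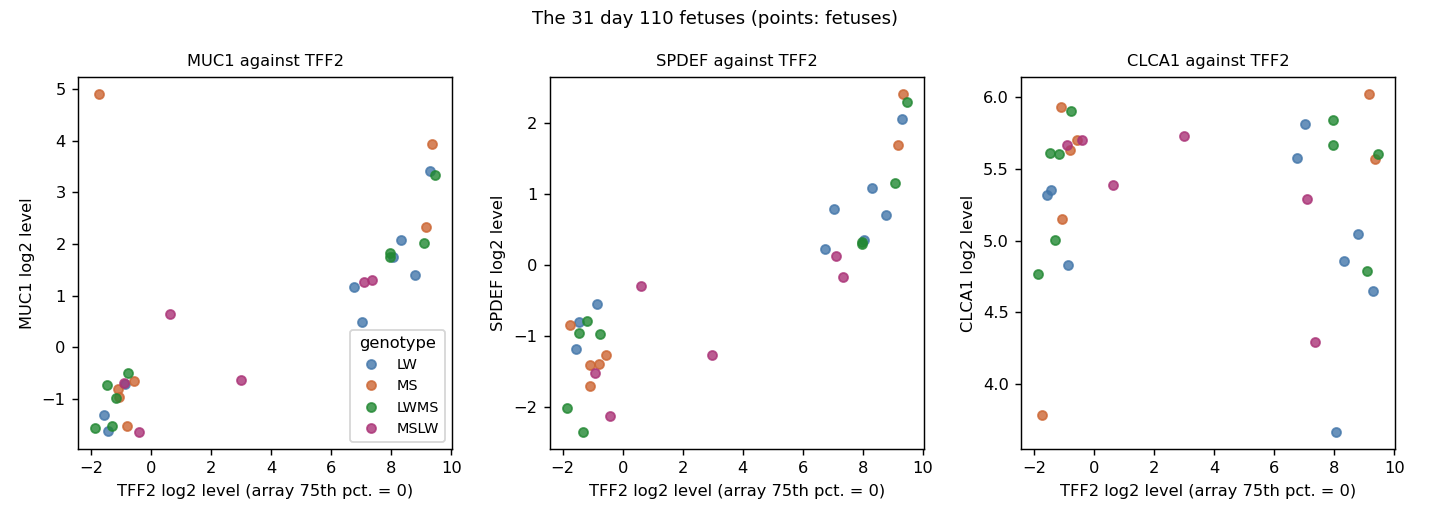
Log2 levels (75th percentile of the array at 0) of MUC1, SPDEF and CLCA1 (y axes) against that of TFF2 (x axes) in the 31 day 110 fetuses, coloured by genotype. The fetuses form a group with TFF2 above 6.74 and a group below 2.98; SPDEF is higher throughout the first, MUC1 is mostly higher there with fetus 632 at 4.91 in the second, and CLCA1 runs from 3.67 to 6.02 in the first and from 3.78 to 5.93 in the second.

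Genes of stomach and pylorus were examined for this reason, from a list drawn up after the values were seen, which holds TFF1 and TFF2 as well. Of its 15 genes, 8 could be tested and 4 rose with age: TFF1, TFF2, GIF and GAST. GIF, the gastric intrinsic factor, rose by 3.39 (adjusted p = 8.8e-06), and GAST, which encodes the antral hormone gastrin, by 2.04 (adjusted p = 0.0021). Because the list was picked from these same values, its count is a description. It cannot be weighed against the 6.07% of all probes that rose. Pepsinogen C (PGC) differed by 0.85 (adjusted p = 0.16), and the proton pump genes ATP4A and ATP4B by -0.05 and 0.12, neither called. The mean level of the list without TFF2, which defined the division, ran from -0.86 to 1.65 in the 14 fetuses with high TFF2, from -3.95 to -1.66 in the other 17, and from -3.47 to -1.31 at day 90. The mean level of the enterocyte markers ran from 1.23 to 5.08 in the 14, with a median of 3.65. In the 17, with a median of 4.98, it ran from 4.29 to 5.44 except in fetus 632, at -0.29. The mean level of the epithelial markers ran from 3.84 to 4.81 in the 14 and from 3.61 to 4.69 in the 17. The part of the stomach and pylorus genes in the rise of SPDEF and MUC1 was not tested. The labels name the tissue as jejunum in all 63.

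Among the genes whose levels over the 63 arrays were most like that of the MUC2 probe were ABCC1, FAM129B, CC2D1A and MICALL1 (Pearson r of 0.72 to 0.68 across arrays), out of 8797 named genes compared, and TPCN1, ITPKA, TCAP, HERC2 and PLCG1 followed at 0.67 to 0.66. None of those named is a member or on the lists of goblet cell genes above. These values share arrays, their scaling and the differences between groups, and are a description.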

How the data were processed

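RNA of mid-jejunum from 63 fetuses was hybridised by the authors to one-colour Agilent arrays and scanned with Feature Extraction 10.10.1.1. The deposited scanner files hold the linear processed signal intensity of each spot, background-subtracted by that software, and the authors also deposited a matrix of normalized log2 values of 39446 probes, used here as an alternative; its scale follows the processed signal (r of at least 0.989 per array) and its column medians are 8.61. The fetuses were chosen by the authors near the mean weight of their litter.

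From the scanner files, outlier spots were left out, log2 processed signals were centred on each array's 75th percentile over non-control spots, and spots of 1 probe were averaged. A probe entered the test if the scanner software marked it well above background on 75% or more of any group's arrays (40515 probes). The 8 group means were fitted with limma 3.58.1 in R 4.3.3, and 11 contrasts were adjusted by Benjamini-Hochberg over all tested probes. Calls required an adjusted p of at most 0.01 and a log2 difference of at least 0.5 for age and breed, an adjusted p of at most 0.01 for their interaction, and an adjusted p under 0.05 for sow and sire breed. Tests are two-sided, and intervals are 95%. The fit was tested on simulated data in which all fetuses were independent, so that this could not check the effect of shared litters.

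Each member gene but MUC13 was represented by its brightest tested probe, all its probes being given. MUC13 was represented by A_72_P442057, a choice made after the values were seen. Genes of the other lists were named by the smallest adjusted p. The members and lists were chosen with earlier results of these data known. The authors fitted the sow as a random effect, which the labels do not allow. The arrays lay on 8 slides of 7 or 8 arrays. Alternatives were another background correction, scaling, filter, slide as a block, array weights, the deposited matrix, and leaving out fetuses. The number of arrays limits the precision. The list of genes most like MUC2 is not reported here in full.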

Additional observations from a re-analysis of the deposited data

Results flagged for a closer look

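In 8 of 48 sets of a gene and a group, the highest or lowest fetus lay far from the rest of its group, where chance alone marks about 1 in 20. The sets are not independent, as fetuses 484 and 632 each count under both FCGBP and CLCA1. Whether 8 of 48 exceeds chance was not tested. Fetus 484 (LW, day 90) was low in FCGBP, at 2.42 against 4.21 in the next fetus, and in CLCA1, at 1.60 against 3.08. Fetus 632 (MS, day 110) was low in FCGBP, at 3.28 against 5.35, and in CLCA1, at 3.78 against 5.15. SPDEF was high in fetus 894 (LW, day 90), at -0.77 against -1.71, and CLCA1 was low in fetus 578 (MSLW, day 110), at 4.30 against 5.29. MUC13 was low in fetus 575 (LW, day 110), at 3.91 against 5.16, and in fetus 609 (LWMS, day 110), at 5.04 against 5.93.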

How the results depend on the processing

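Among the 11 comparisons, the counts of member probes that passed moved by over 1.5 times in these settings. The count for age in MS went from 3 to 5 without fetuses 484 and 632, a pair chosen after seeing the data, and to 1 in purebred fetuses alone; for age in MSLW from 5 to 3 under median centring and with slide as a block. For MS minus LW at day 110 it went from 0 to 1 with array weights, and for sow breed from 1 to 0 under quantile normalization, without a filter, and on the deposited matrix. Leaving out 1 fetus at a time gave 1 to 5 for age in MS (1 without 524, 627 or 826; 5 without 632) and 0 to 2 for sow breed (other than 1 in 30 of 63 fits, 2 without 632 and 0 in the rest of these). The count for age over all genotypes stayed between 9 and 11, and those for MS minus LW at day 90 and sire breed at 1. Signs turned only for values that did not pass. By age, MUC13 A_72_P759409 went from 0.09 to -0.043 under quantile normalization and -0.049 on the deposited matrix. By sow breed, that probe went to -0.0087 on the deposited matrix, FCGBP to -0.060 under both of these, MUC1 to -0.039 with slide as a block, -0.32 with array weights and -0.011 without 484 and 632, and SPDEF to -0.17 with array weights. Leaving out 1 fetus gave -0.022 to 0.25 for MUC1 and -0.0455 to 0.13 for SPDEF by sow breed. The causes were not tested. Median centring moved the median of all probes by sow breed from 0.02 to 0.12. No paired analysis was possible because each fetus number occurs once. MUC2 and MUC4 were limited by signal near background.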

Other observations

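The day 110 fetuses with high MUC1 followed each other in the fetus numbers of the labels. All 13 day 110 fetuses numbered 557 to 633, from 4 genotypes, had MUC1 levels of 1.16 or more, and of the other 18, 15 were below 0, with fetuses 850, 851 and 469 at 0.49, 0.63 and 1.40. TFF2 ran from 6.74 to 9.46 in 12 of the 13 and was -1.75 in fetus 632. The labels do not say what the numbers mark, the range was chosen after the values were seen, and no test was made. CLCA1 in the 18 other fetuses ran from 4.76 to 5.93, above every day 90 fetus.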
